A study of Mus musculus with 8 samples.

Results

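Hormone and mediator receptor genes known from fat cells were followed in whole back skin: Oxtr, Tshr, Mrap, Mc2r, Adrb3, Adora1 and Ptger3, which are 7 of the 49671 genes counted. The set was chosen by measured values of these data, the strong rise of Oxtr, Tshr and Mrap between the genotypes compared here. The values of those 3 genes, and any call of them in a fit, are therefore a description and not a test. The other 4 were added as receptors of the same tissue, with earlier results of these data known. Their p-values are a description too. The libraries came from total shaved back skin of mice aged 8 weeks. There were 4 libraries of flg genotype wt/wt and 4 of flg genotype ko/ko. The labels name no other allele, treatment or strain, and do not say how the deficient allele was made. Flg encodes profilaggrin, a protein of the upper epidermis, and it was lower in ko/ko (24.5 ± 1.96 CPM, SD, n = 4) than in wt/wt (58.9 ± 9.76 CPM, SD, n = 4) with no overlap. CPM are counts per 1000000 of the scaled library size, and the library totals lay between 18483242 and 38545957 counts. Krt5, a keratin of basal keratinocytes, was at 2089 CPM or more in every library, as the label of skin asks.

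Fat cells store triglyceride and release it as fatty acids when cyclic AMP rises and activates protein kinase A, which acts on the lipases at the lipid droplet. The beta-3 adrenergic receptor (Adrb3), the thyrotropin receptor (Tshr) and the receptor for adrenocorticotropin (Mc2r) couple to the stimulatory G protein and raise cyclic AMP. Mrap encodes an accessory protein that Mc2r needs to reach the cell surface and bind its hormone. The adenosine A1 receptor (Adora1) and the prostaglandin E2 receptor EP3 (Ptger3) couple to inhibitory G proteins and restrain lipolysis, and the oxytocin receptor (Oxtr) acts mainly through phospholipase C and calcium. Mouse back skin holds a layer of white fat in the lower dermis, so a library of whole skin includes these cells. In such bulk samples a change in the number of cells of a type and a change in RNA per cell cannot be told apart.

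Every one of the 7 genes had a higher mean level in ko/ko than in wt/wt, with log2 fold changes from 0.83 (Adrb3) to 2.10 (Tshr). With edgeR's quasi-likelihood test and Benjamini-Hochberg adjustment over 19099 tested genes, 3 of the 7 were called higher at an adjusted p under 0.05, and they were the same 3 whose rise chose the set. Over all tested genes 0.712% were called higher. All 7 passed the filter on low counts. The CPM of ko/ko lay wholly above that of wt/wt in 4 of the 7 genes (Oxtr, Tshr, Mrap and Adora1), against 5.57% of all tested genes. Nothing is read from these counts, since the same contrast chose the genes. The median log2 fold change was 1.70 over the 7 genes and -0.02 over all tested genes.

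Oxtr (chromosome 6, positions 112473683 to 112489943, minus strand, mm10) was at 26.4, 22.6, 19.0 and 28.4 CPM in wt/wt replicates 1 to 4. It was at 89.8, 105, 69.6 and 101 CPM in ko/ko replicates 1 to 4. The 2 genotypes were far apart, with the lowest ko/ko library well above the highest wt/wt library. The ratio of means was 3.80 and the log2 fold change 1.92 ± 0.15 (SE, n = 4 per group). Raw counts of Oxtr were between 452 and 916 in wt/wt and between 1674 and 3416 in ko/ko, so counting error is small beside the spread between libraries. Within a genotype the highest library exceeded the lowest 1.49-fold in wt/wt and 1.51-fold in ko/ko, the narrowest spread of the 7 genes in both genotypes.

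Tshr (chromosome 12, positions 91400994 to 91540509, plus strand) was at 1.90, 2.68, 5.01 and 1.82 CPM in wt/wt replicates 1 to 4. It was at 10.7, 15.99, 6.41 and 15.5 CPM in ko/ko. The genotypes did not overlap, but wt/wt replicate 3 and ko/ko replicate 3 stood close to each other. The log2 fold change was 2.10 ± 0.37 (SE), with a ratio of means of 4.26. Without wt/wt replicate 3 it was 2.51 ± 0.34. Tshr was no longer called when any of wt/wt replicate 1 or 4 or ko/ko replicate 1, 2 or 4 was left out. Its fold change was then between 1.94 and 2.16, and those fits called between 11 and 77 of all genes, against 270 with every library.

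Mrap (chromosome 16, positions 90738324 to 90749785, plus strand) was at 4.59, 2.53, 7.28 and 3.12 CPM in wt/wt and at 17.9, 16.1, 9.32 and 13.5 CPM in ko/ko. As for Tshr, the genotypes did not overlap and the replicates numbered 3 were the closest pair. The log2 fold change was 1.70 ± 0.32 (SE), and the call ended when any of the same 5 libraries was left out. Its partner receptor gene Mc2r (chromosome 18, positions 68406907 to 68429251, minus strand) was scarcer, at 1.44, 1.78, 3.997 and 1.07 CPM in wt/wt and 5.18, 6.36, 3.37 and 3.96 CPM in ko/ko. Here wt/wt replicate 3 exceeded ko/ko replicates 3 and 4, so the genotypes overlapped. Mc2r had a log2 fold change of 1.197 ± 0.37 (SE) and did not pass edgeR (adjusted p = 0.130, mean higher in ko/ko). Both partners were highest of wt/wt in replicate 3 and lowest of ko/ko in replicate 3.

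Adrb3 (chromosome 8, positions 27225776 to 27250616, minus strand) was at 13.6, 13.4, 21.9 and 9.72 CPM in wt/wt and at 23.0, 33.2, 15.5 and 32.8 CPM in ko/ko. Of the 7 genes it had the smallest difference, a log2 fold change of 0.83 ± 0.28 (SE), and it did not pass edgeR (adjusted p = 0.161). The genotypes overlapped, because ko/ko replicate 3 lay below wt/wt replicate 3. The uncharacterised gene Gm45470 shares 839 bases of exon with Adrb3 on the opposite strand and was at 5.25 ± 1.29 CPM in ko/ko and 3.77 ± 1.97 CPM in wt/wt (SD, n = 4). The strand setting of the counting is not given in the sources used here, so reads of the shared bases carry an uncertainty.

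The receptors that restrain cyclic AMP, Adora1 and Ptger3, differed from each other in the size of their rise (log2 fold changes 1.71 and 1.02). Adora1 (chromosome 1, positions 134199223 to 134235431, minus strand) was at 4.93, 2.01, 6.94 and 3.24 CPM in wt/wt. It was at 22.3, 13.2, 8.40 and 12.0 CPM in ko/ko. The genotypes did not overlap, and ko/ko replicate 1 stood above the other ko/ko libraries. The log2 fold change was 1.71 ± 0.39 (SE), as large as that of Mrap, yet with this spread Adora1 did not pass edgeR (adjusted p = 0.0651). Adora1 shares 1162 bases of exon with the muscle gene Mybph on the opposite strand, which was at 14.7 ± 4.23 CPM in wt/wt and 21.9 ± 2.70 CPM in ko/ko (SD, n = 4). The part of Mybph reads in the Adora1 values was not tested.

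Ptger3 (chromosome 3, positions 157566892 to 157645888, plus strand) was at 23.0, 20.3, 37.8 and 19.6 CPM in wt/wt and at 60.1, 55.9, 33.4 and 53.9 CPM in ko/ko. Only ko/ko replicate 3 fell inside the wt/wt range. The log2 fold change was 1.02 ± 0.24 (SE), and Ptger3 did not pass edgeR (adjusted p = 0.0672). Without ko/ko replicate 3 it passed (adjusted p = 0.0484), as it did without wt/wt replicate 3 (adjusted p = 0.00995), within a range of 0.00995 to 0.182 over the 8 omissions of a single library.

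**Figure D1:**
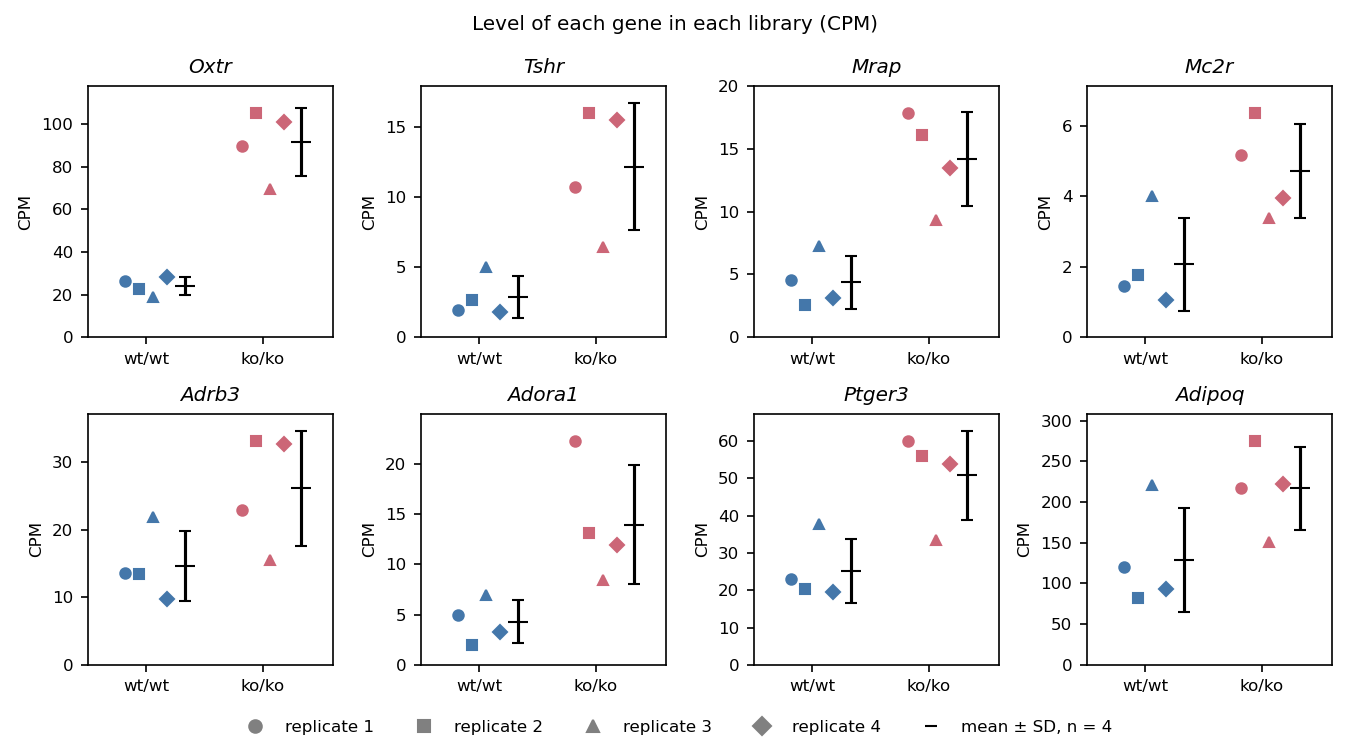
Level of each receptor gene and of Adipoq in every library, in CPM on linear axes that start at 0, with wt/wt in blue and ko/ko in red; symbols mark the replicate and the black bar is the mean ± SD of 4 libraries. Oxtr separates most clearly (19.0 to 28.4 against 69.6 to 105 CPM), while wt/wt replicate 3 and ko/ko replicate 3 approach or cross each other in the other panels.

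Per kilobase of exon, a scale on which genes can be compared, Oxtr had the highest mean level in both genotypes. In wt/wt it was at 5.03 ± 0.87 CPM per kb (SD, n = 4), followed by Ptger3 at 4.42 ± 1.501, Adrb3 at 4.34 ± 1.53, Mrap at 2.99 ± 1.45, Mc2r at 1.33 ± 0.84, Adora1 at 0.74 ± 0.37 and Tshr at 0.59 ± 0.31. Every neighbouring pair in that order overlapped between libraries. In ko/ko Oxtr was at 19.1 ± 3.33 CPM per kb and did not overlap Mrap, the next at 9.70 ± 2.54. Mrap, Ptger3 (8.94 ± 2.09) and Adrb3 (7.74 ± 2.52) overlapped each other in sequence. A gap without overlap then separated Adrb3 from Mc2r (3.02 ± 0.85), and Mc2r, Tshr (2.49 ± 0.93) and Adora1 (2.41 ± 1.02) overlapped again. Adipoq, the gene of the fat hormone adiponectin, was far more abundant than any of them, at 93.5 ± 46.1 CPM per kb in wt/wt and 157 ± 36.8 CPM per kb in ko/ko.

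The level of Adipoq itself varied widely within each genotype, and the genotypes overlapped. It was at 120, 81.6, 221 and 93.5 CPM in wt/wt replicates 1 to 4 and at 217, 275, 151 and 222 CPM in ko/ko. Its log2 fold change was 0.75 ± 0.31 (SE), not past edgeR (adjusted p = 0.239). Of the 7 receptor genes, 6 had the same highest wt/wt library as Adipoq, replicate 3, and all 7 had the same lowest ko/ko library, replicate 3. Oxtr was the exception in wt/wt, where replicate 3 was its lowest library.

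Counted per 100 Adipoq reads of the same library, 4 of the 7 genes kept a gap between genotypes, which 0.157% of all tested genes did in the same direction. Nothing is read from that share either, since it rests on the contrast that chose the genes. Oxtr gave 22.1, 27.7, 8.59 and 30.4 reads per 100 Adipoq reads in wt/wt and 41.3, 38.3, 46.0 and 45.5 in ko/ko. Its ko/ko libraries were nearly level, and its low wt/wt value was in replicate 3, the library with the most Adipoq of its group. Tshr gave 1.59, 3.29, 2.26 and 1.95 in wt/wt and 4.92, 5.81, 4.23 and 6.98 in ko/ko.

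Mrap was the steadiest in wt/wt on this scale, at 3.83, 3.09, 3.29 and 3.34 reads per 100 Adipoq reads, and stood at 8.22, 5.87, 6.16 and 6.07 in ko/ko. The high wt/wt replicate 3 of the CPM scale was thus level with its group once set against Adipoq. Adora1 gave between 2.47 and 4.12 in wt/wt and 10.3, 4.78, 5.55 and 5.38 in ko/ko. Mc2r, at 1.58 ± 0.50 in wt/wt and 2.18 ± 0.27 in ko/ko, overlapped between genotypes. So did Ptger3, at 20.5 ± 3.29 and 23.6 ± 3.16 (SD, n = 4). Adrb3 had nearly the same mean in both, 12.0 ± 3.01 in wt/wt and 11.9 ± 2.05 in ko/ko.

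**Figure D2:**
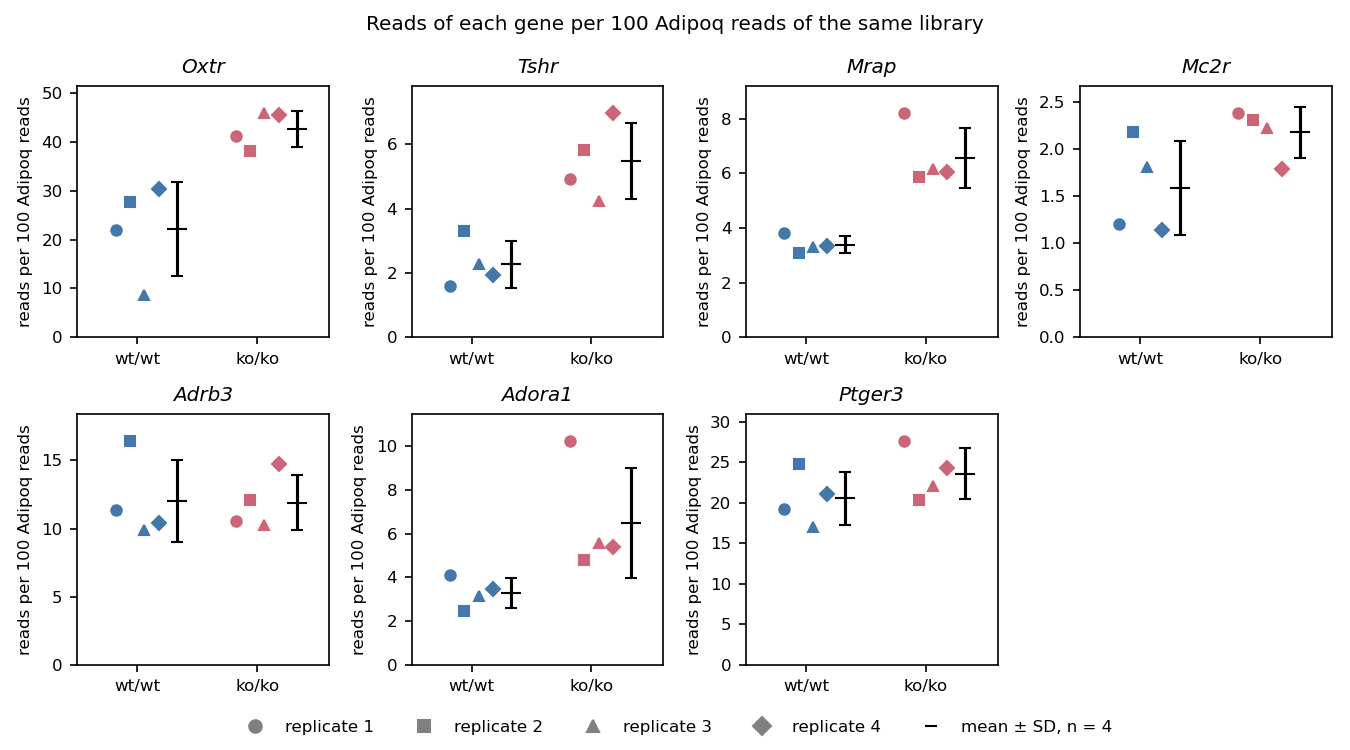
Reads of each receptor gene per 100 Adipoq reads of the same library, on linear axes that start at 0, with wt/wt in blue and ko/ko in red, replicates by symbol and the mean ± SD of 4 libraries in black. Oxtr, Tshr, Mrap and Adora1 keep a gap between genotypes, and Adrb3 has means of 12.0 and 11.9.

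Fits with a measure of fat as a covariate left Oxtr nearly where it was and lowered the other 6 genes. A direct ratio did lower Oxtr. Its log2 ratio to Adipoq differed by 1.09 between genotypes (SD 0.83 in wt/wt and 0.13 in ko/ko), and that of Tshr by 1.30. Against the mean of 19 white adipocyte markers the difference of Oxtr was 1.13. With the log2 level of Adipoq in the model, the log2 fold change of Oxtr was 1.94 ± 0.25 (SE), against 1.92 without it. Those of Tshr, Mrap and Adora1 were 1.29 ± 0.33, 0.95 ± 0.20 and 0.95 ± 0.37. For Mc2r, Ptger3 and Adrb3 they were 0.43 ± 0.30, 0.44 ± 0.16 and 0.18 ± 0.24. With the mean of 19 white adipocyte marker genes as the covariate, Oxtr was at 1.97 ± 0.29, Tshr at 1.003 ± 0.37, Mrap at 0.65 ± 0.21 and Adora1 at 0.57 ± 0.39. Ptger3, Mc2r and Adrb3 were at 0.19 ± 0.15, 0.12 ± 0.32 and -0.0253 ± 0.29 in that fit. No receptor gene was called with either covariate. Few genes of any kind were, since these fits called 5 and 0 of 19099 tested genes, against 270 without a covariate. By edgeR, 5 and 3 of the 7 had an unadjusted p under 0.05, as did 11.7% and 11.3% of all tested genes. DESeq2 and limma voom, run without a covariate, called all 7. The covariate moves with genotype, and its part in the differences cannot be told apart from that of genotype with 4 libraries a group.

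**Figure D3:**
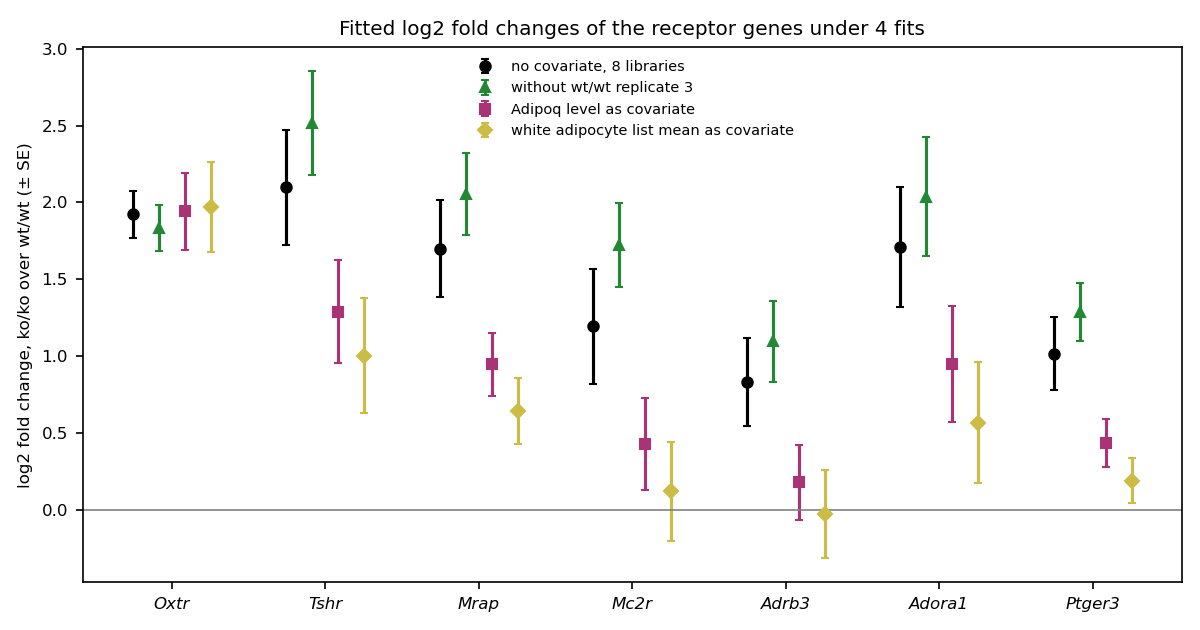
Fitted log2 fold change of each receptor gene, ko/ko over wt/wt, with its SE, from edgeR on all 8 libraries, without wt/wt replicate 3, and with Adipoq or the mean of 19 white adipocyte markers as a covariate. Oxtr stays between 1.83 and 1.97 in the 4 fits, and Adrb3 runs from -0.0253 to 1.10.

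Leaving out wt/wt replicate 3, the wt/wt library with the highest Adipoq, raised the fold change of every gene except Oxtr, which went to 1.83 ± 0.15. All 7 genes were then called higher by edgeR, in a fit that called 3.49% of its tested genes higher. Without it Mc2r was at 1.72 ± 0.27, Adora1 at 2.04 ± 0.39, Ptger3 at 1.29 ± 0.19 and Adrb3 at 1.10 ± 0.27 (SE), and Adipoq at 1.15 ± 0.20. DESeq2 on all 8 libraries called all 7 genes higher where it called 3.16% of genes higher. Limma voom with quality weights per library also called all 7, beside 6.25% of genes. Oxtr was called without each of the 8 libraries in turn.

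A promoter window in RefSeq (GRCm38.p6) was found for 3 of the 7 genes, Oxtr, Adora1 and Ptger3, and these are shown because they let a large, an intermediate and a smaller difference be set beside the bases before the gene. The stretches run 5′ to 3′ on the strand of the gene and hold only bases before both the RefSeq start and the gene model of the count table. They lie at chr6:112489944-112490075 (minus strand), chr1:134235458-134235707 (minus strand) and chr3:157566626-157566875 (plus strand).
Oxtr: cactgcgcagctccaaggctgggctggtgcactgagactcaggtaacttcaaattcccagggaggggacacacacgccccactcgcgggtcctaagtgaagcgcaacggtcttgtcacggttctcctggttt
Adora1: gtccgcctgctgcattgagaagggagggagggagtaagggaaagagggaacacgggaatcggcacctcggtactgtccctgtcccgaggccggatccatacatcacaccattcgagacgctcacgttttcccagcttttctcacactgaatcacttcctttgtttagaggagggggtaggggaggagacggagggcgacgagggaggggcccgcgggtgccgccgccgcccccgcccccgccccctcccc
Ptger3: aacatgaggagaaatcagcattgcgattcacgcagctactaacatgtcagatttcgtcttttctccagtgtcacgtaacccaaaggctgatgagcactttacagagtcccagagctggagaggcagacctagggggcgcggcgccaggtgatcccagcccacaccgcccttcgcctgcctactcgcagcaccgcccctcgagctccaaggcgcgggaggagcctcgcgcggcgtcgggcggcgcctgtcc

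Over the 250 bases before each RefSeq start, both strands were searched for elements of fat cell and cyclic AMP control. The hexamer AGGTCA, which nuclear receptors such as PPAR-gamma bind in pairs, occurred in Oxtr, 98 to 93 bases before the RefSeq start, and in 14.0% of all 32851 windows. It lies inside the first exon of the count table's longer Oxtr model, at chr6:112489908-112489933 with 10 bases on either side, and is in capitals here.
Oxtr hexamer: gaggacaggcAGGTCAgtgccagagt
The paired form bound by PPAR and RXR, a direct repeat of that hexamer with 1 base between, was in none of the windows of Oxtr, Adora1 and Ptger3 and in 0.0335% of all. The same 3 genes held no match to the cyclic AMP element TGACGTCA (1.55% of all windows) or its core TGACG (17.8%), which the full element contains. They held none to the C/EBP form TTNNNCAA (33.3%), which contains the palindrome TTGCGCAA (0.164%), nor to the glucocorticoid hexamer AGAACA (16.1%) or TATAAA (12.4%). The E-box CANNTG was in the windows of Oxtr and Ptger3, in that of the inner of the RefSeq starts of Adora1 but not in the one shown, and in 66.2% of all. The GC content of the Oxtr, shown Adora1 and Ptger3 windows was 61.6%, 64.4% and 62.0%, against a median of 52.4%. A match is a description of the letters, and no match says nothing about binding.

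The genes most like Oxtr over the 8 libraries were Agps, Ghr, Plxna4 and Aff2, with Pearson's r of log2 CPM between 0.979 and 0.990 among 15145 candidate genes whose log2 CPM averaged 1 or more. Ghr, the growth hormone receptor gene, was at 189 to 211 CPM in wt/wt and 335 to 442 CPM in ko/ko. Adipoq had an r of 0.65 with Oxtr. For Tshr the most alike were Tstd2, Lrrc41, Atp1a4 and Npr3 (r between 0.985 and 0.993), and the leptin gene Lep followed at rank 5 with 0.984. For Mrap they were Pcx, H6pd, Cfd and Cmklr1 (r between 0.984 and 0.987), with Adora1 at rank 6 and Ptger3 at rank 17. Adipoq had an r of 0.88 with Tshr and 0.93 with Mrap. These coefficients include the difference between genotypes that all such genes share, and they are a measure of likeness only.

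Transcripts of the hormones themselves were scarce. Oxt, which encodes oxytocin, had between 0 and 7 reads in any library, and Pomc, the precursor of adrenocorticotropin, between 2 and 9. Tshb, the beta chain of thyrotropin, was at 0.59 ± 0.13 CPM in wt/wt and 0.34 ± 0.19 CPM in ko/ko (SD, n = 4; edgeR adjusted p = 0.298). Cga, its alpha chain, had 0 reads in every library, where 3 reads would be between 0.0789 and 0.16 CPM. Lnpep, which encodes the peptidase that degrades oxytocin, had an edgeR estimate of 0.54 ± 0.19 on the log2 scale (SE, adjusted p = 0.177). Of 10 genes of ligands and their processing 3 could be tested and 0 were called by edgeR, with 1 at an unadjusted p under 0.05, 0 by DESeq2 and 1 by limma voom. Over all tested genes the share at an unadjusted p under 0.05 was 19.5% in the same edgeR fit.

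Among 21 tested relatives in the same receptor families 0 were called higher and 1 lower, against 0.702% of all tested genes called lower. It was Adora2a, an adenosine receptor that raises cyclic AMP. Adora2a fell from 3.80 ± 0.34 to 2.08 ± 0.27 CPM (SD, n = 4), a log2 fold change of -0.87 ± 0.16 (SE, edgeR adjusted p = 0.0359). The call was lost in 6 of the 8 omissions of a single library (all but wt/wt replicates 2 and 3, adjusted p up to 0.130) and with both covariates. The other adenosine receptor genes besides Adora1 were lower too, Adora2b at -0.31 ± 0.10 without overlap and Adora3 at -0.25 ± 0.16 with overlap. Adora2b and Adora3 did not pass (SE, edgeR adjusted p = 0.149 and 0.405). By edgeR 5 of the 21 had an unadjusted p under 0.05, beside 19.5% of all tested genes. They were Adora2a and Adora2b, lower, and Adra1a, Adra1b and Adra1d, higher. The alpha-1 adrenergic receptor genes Adra1a, Adra1b and Adra1d stood at 0.67 ± 0.29, 0.71 ± 0.27 and 0.70 ± 0.25 (SE, edgeR adjusted p = 0.245, 0.188 and 0.165). Adrb1, the beta-1 adrenergic receptor gene, stood at -0.24 ± 0.18 and did not pass (SE, edgeR adjusted p = 0.478). Mc5r, the melanocortin receptor of sebaceous glands, stood at 0.20 ± 0.20 (adjusted p = 0.609), and Ptger4, a prostaglandin E2 receptor that raises cyclic AMP, at -0.08 ± 0.12 (adjusted p = 0.762). The list had a median of 0.08.

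Of 22 tested receptors for other hormones that act on fat, 2 were called higher and 0 lower, with a median of 0.22. Beside this and the lists that follow, 0.712% of all tested genes were called higher and 0.702% lower. By edgeR 12 of the 22 had an unadjusted p under 0.05, beside 19.5% of all tested genes. Prlr, Thra and Hcar2 were the lower ones among them. DESeq2 called 4 higher and 1 lower, and limma voom 6 higher and 1 lower, where they called 3.16% and 6.25% of genes higher. Ghr rose from 202 ± 10.6 to 399 ± 46.3 CPM. Npy1r, a neuropeptide Y receptor that couples to inhibitory G proteins, rose from 16.9 ± 2.999 to 36.0 ± 4.17 CPM (SD, n = 4), a log2 fold change of 1.09 ± 0.14 (SE, edgeR adjusted p = 0.0106). In both, the lowest ko/ko library lay above the highest wt/wt library, and both were called without each of the 8 libraries in turn. With the Adipoq covariate Npy1r was still called (adjusted p = 0.0359) and Ghr was not (adjusted p = 0.0650), and with the white adipocyte mean neither was. Npr3, which clears natriuretic peptides, was at 1.35 ± 0.33 and did not pass (adjusted p = 0.0815). Nor did Prlr, lower at -0.49 ± 0.11 (SE, edgeR adjusted p = 0.0514), or Npr1, higher at 0.39 ± 0.09 (adjusted p = 0.0672). Both Prlr and Npr1 were without overlap between genotypes.

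Downstream of the receptors, 1 of 21 tested genes of G proteins, adenylyl cyclases and receptor desensitization was called, in the higher direction. Adcy5, an adenylyl cyclase that inhibitory G proteins restrain, rose from 19.9 ± 3.50 to 43.0 ± 8.86 CPM (SD, n = 4), a log2 fold change of 1.11 ± 0.17 (SE, edgeR adjusted p = 0.0196). It was not called without wt/wt replicate 4, ko/ko replicate 2 or ko/ko replicate 4. Plcb1, a phospholipase C that the Oxtr pathway uses, rose from 9.01 ± 1.58 to 16.2 ± 1.31 CPM, 1 of 13 in the phospholipase C and calcium list (log2 fold change 0.85 ± 0.14, edgeR adjusted p = 0.0231). It was not called without wt/wt replicate 1 or ko/ko replicate 1, 2 or 4, and neither Adcy5 nor Plcb1 was called with a covariate. The medians of these lists were 0.05 each. Of 17 genes of protein kinase A and the phosphodiesterases 0 were called by edgeR, with 3 at an unadjusted p under 0.05 (2 higher and 1 lower), a share near that of all tested genes. DESeq2 called 1, higher, and limma voom 2 higher and 1 lower. Pde3b, the fat cell phosphodiesterase that insulin activates, stood at 0.54 ± 0.14 (adjusted p = 0.0854).

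The lipolysis genes that these receptors act on had a median of 0.71, with 0 of 7 called by edgeR and 6 at an unadjusted p under 0.05, 5 of them higher and 1 lower, beside 19.5% of all tested genes. DESeq2 called 2, both higher, and limma voom 3 higher and 1 lower. G0s2, an inhibitor of the fat lipase, stood at 1.06 ± 0.29 (adjusted p = 0.0993) and Pnpla2, that lipase, at 0.71 ± 0.25 (adjusted p = 0.174). Mgll, the lipase of monoglycerides, stood in the other direction at -0.67 ± 0.25 (adjusted p = 0.186), as did Aqp7, the glycerol channel, at -0.49 ± 0.30 (adjusted p = 0.407). Among 15 genes for the supply and removal of adenosine and prostaglandin E2, 1 was called, lower. Hpgd, the enzyme that inactivates prostaglandin E2, fell from 64.7 ± 4.74 to 43.0 ± 5.81 CPM (SD, n = 4), a log2 fold change of -0.59 ± 0.10 (SE, edgeR adjusted p = 0.0284). The call was lost without wt/wt replicate 1 or 4 or ko/ko replicate 1, 2 or 4 (adjusted p up to 0.119) and with both covariates. Of 10 cyclic AMP responsive genes 1 was called, Per1, which is also a clock gene, at 0.83 ± 0.11 (SE, adjusted p = 0.0151), and the median was -0.05. Per1 was not called without ko/ko replicate 2 or 4 or with a covariate.

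**Figure D4:**
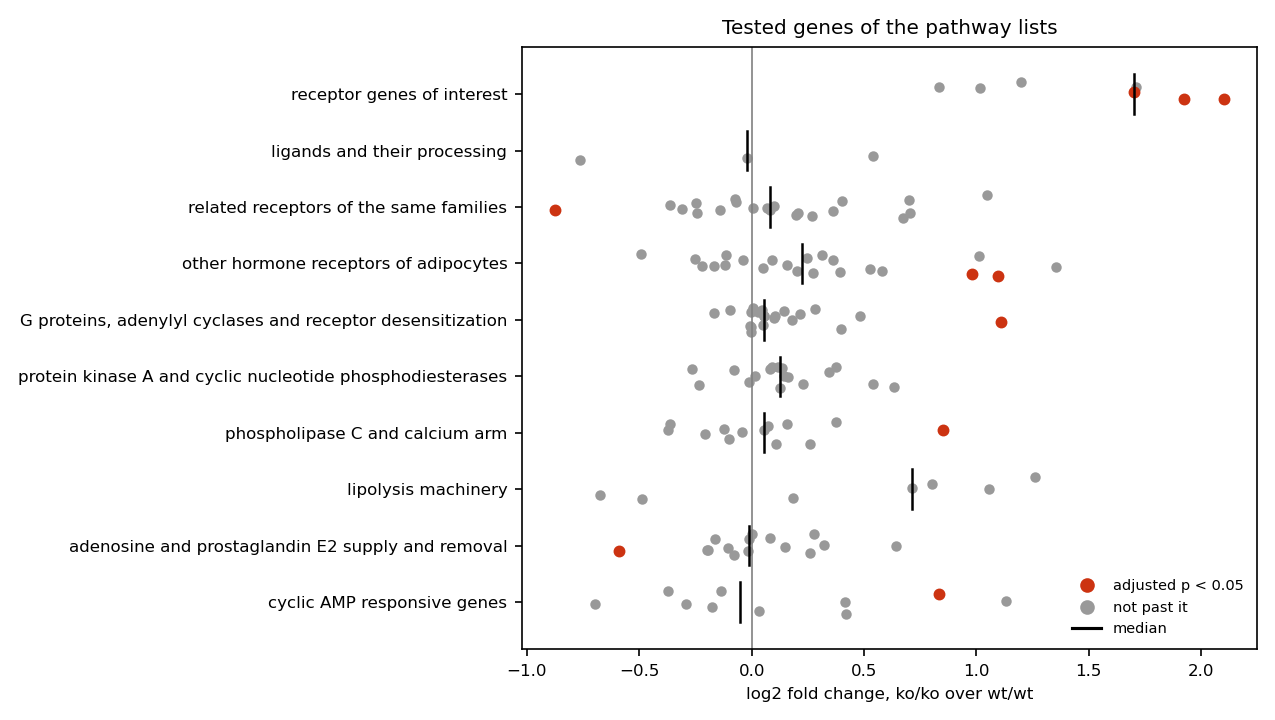
Log2 fold change, ko/ko over wt/wt, of every tested gene in the receptor set and the pathway lists; red points passed edgeR at an adjusted p under 0.05, grey points did not, and the black line is the list's median. The receptor set has a median of 1.70 by its choice, the lipolysis list one of 0.71, and the other lists lie between -0.05 and 0.22.

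Markers of the cells that could hold these receptors were set beside them. The 19 white adipocyte markers had a summed level of 5125 to 8897 CPM in wt/wt and 7043 to 9021 CPM in ko/ko, with 0 called by edgeR, 12 at an unadjusted p under 0.05 (all higher, beside 19.5% of all tested genes in either direction) and a median log2 fold change of 0.60. DESeq2 called 10 of the 19, limma voom 13, and edgeR without wt/wt replicate 3 called 12. Their mean was highest of wt/wt in replicate 3 (7.25 log2 CPM) and lowest of ko/ko in replicate 3 (6.99 log2 CPM). Ucp1, which defines brown and beige fat cells, had at most 0.158 CPM. The defining genes of thyroid follicles, the main site of Tshr, summed to at most 1.15 CPM over 5 genes. Of the 6 adrenal cortex genes, the steroid enzymes Cyp11b1 and Cyp21a1 were at 0.144 CPM or less, and Star and Cyp11a1, which are also made elsewhere, were at 3.48 to 11.0 CPM. Zfp423, a factor of fat cell progenitors, was 1 of 9 progenitor and fibroblast markers called, higher at 0.59 ± 0.12 (SE, edgeR adjusted p = 0.0483), and it was called in 2 of the 8 omissions, those of wt/wt replicates 2 and 3, and with neither covariate. The 7 smooth muscle and pericyte markers summed to 1250.5 to 1465 CPM in wt/wt and 1488 to 1755 CPM in ko/ko, without overlap. The 5 basal keratinocyte markers were lower without overlap, at 6388 to 7833 CPM in wt/wt and 5688 to 6289 CPM in ko/ko. In both lists 0 were called by edgeR. Every other cell list overlapped between genotypes in its summed level. The part of fat cell number, or of the number of any other cell, in the receptor differences was not tested.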

How the data were processed

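Whole back skin RNA of 8 libraries was analysed. The submitters' processing notes name GSNAP, featureCounts 1.6.2 and the build mm10. The deposited table holds raw, unnormalised counts of reads for each gene, with exon length in bases per the file headers. The strand setting was not found in the labels or headers. The labels name both a SMART protocol and a strand-specific kit, and which of them made the libraries was not settled.

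Spike-in rows (92) were left out. Symbols came from GENCODE M21 (49326 of 49671 genes). edgeR 4.0.16 (R 4.3.3) was fitted to all genes with filterByExpr, TMM scaling, robust quasi-likelihood and genotype as the only term. Log2 fold changes are ko/ko over wt/wt, and their SE is the fold change over the root of its F statistic. Calls used a Benjamini-Hochberg threshold of 0.05. CPM use the scaled library sizes, and log2 CPM a prior count of 2. Alternatives were DESeq2 1.42.0, limma 3.58.1 voom with quality weights, other scaling, no filter, each library left out, and a fat covariate. The edgeR fit was tested on counts simulated for this comparison over 18893 genes. It called 32.5% of 40 genes changed 1.5-fold, 74.7% of 79 changed 2-fold and 97.4% of 77 changed 4-fold. Of its calls, 6.37% were unchanged genes. The counts were drawn for each gene on its own, so shifts that many genes share within a library were not part of it. Promoter windows are RefSeq's, on GRCm38.p6, the assembly mm10 represents.

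The members and lists were chosen with earlier results of these data known. Of 248 list entries, 2 had no matching symbol. The genes named are the 7 receptor genes, Adipoq and Flg, the called genes of each pathway list or else those with the smallest p, the 4 most alike genes of Oxtr, Tshr and Mrap, and defining markers. Krt5, Adrb1, Mc5r, Ptger4, Adora2b, Adora3, Adra1a, Adra1b, Adra1d, Npr1, Prlr, Pnpla2, Mgll, Aqp7, Lep, Oxt, Pomc, Tshb, Cga, Npr3, Star, Cyp11a1, Zfp423, Mybph and Gm45470 were added after their values were seen. Replicates are numbered in the order of the samples. The labels do not say that each library is a separate mouse, so p-values measure the spread between these samples, which may be technical.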

Additional observations from a re-analysis of the deposited data

Results flagged for a closer look

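Of 30 groups of 4 libraries examined for a single library far from the rest, 2 were marked, where chance marks about 1 in 20. Both were ko/ko replicate 1 counted per 100 Adipoq reads. Adora1 gave 10.3 reads per 100 Adipoq reads there and 4.78 to 5.55 in the other ko/ko libraries, with the gap taking a share of 0.859 of the group's range. Mrap gave 8.22 there and 5.87 to 6.16 in the others, a share of 0.877.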

How the results depend on the processing

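All 7 receptor genes kept a positive fold change in every alternative except Adrb3, which was -0.0253 with the white adipocyte mean as a covariate. Adipoq was -0.000169 with itself as the covariate, by construction, and -0.25 with the white adipocyte mean. Oxtr lost its call with the Adipoq (1.94) and white adipocyte (1.97) covariates. Tshr lost it without a filter on low counts (2.10) and with these covariates (1.29 and 1.003), as did Mrap (1.70, 0.95 and 0.65). With 1 library left out, Oxtr ranged from 1.83 to 2.03, Tshr from 1.94 to 2.51 and Mrap from 1.52 to 2.05. The number of receptor genes called was 3, and 7 with DESeq2 or limma voom, 1 without the filter, 0 with either covariate, and 1 to 7 with 1 library left out. Pathway list genes called were 7, and 17 with DESeq2, 34 with voom, 11 without the filter, 1 and 0 with the Adipoq and white adipocyte covariates, and 2 to 25 with 1 library left out. Over all genes 270 were called, and 1177 with DESeq2, 2556 with voom, 502 without the filter, 5 and 0 with the covariates (2229 and 2161 at an unadjusted p under 0.05), and from 11 (without ko/ko replicate 2) to 1325 (without wt/wt replicate 3). The cause of these moves was not tested. With DESeq2 size factors 137 genes were higher and 98 lower, and with library totals 133 and 178, against 136 and 134. No paired analysis was possible because the labels carry no replicate numbers.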
